A study of Mus musculus with 12 samples.

Results

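Gene expression was compared between endothelial cells of pre-collecting lymphatic vessels (pre-col LEC) and of lymphatic capillaries (cap LEC), sorted from the ear skin of C57BL6 mice. The comparison uses 6 of the study's 12 Affymetrix whole-transcript arrays, chosen by their titles: the 3 of pre-col LEC and the 3 of cap LEC. Of 30727 genes with a row, 19669 were bright enough to be tested. Cells of all groups came from animals 5 weeks old, called adult in the sample labels, that carried the Prox1-GFP reporter Tg(Prox1-EGFP)KY221Gsat. Endothelium was enriched on PECAM1 beads, and LEC were sorted on podoplanin (PDPN) and the reporter. Cap LEC were the cells with high LYVE1 and pre-col LEC those with an intermediate level. The other two groups are cells of collecting vessels, in which LYVE1 was low or absent (col LEC), and blood endothelial cells that lack PDPN, the reporter and LYVE1 (BEC), with 3 arrays each. The labels name no treatment. The labels call the arrays of a group biological replicates without saying whether each holds a single mouse or a pool, so the p-values measure the spread between these arrays. The 3 lymphatic groups are gates along the level of a single surface marker, not dissected vessels.

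Lymphatic capillaries are blind-ended vessels that take up fluid and cells through loose, button-like junctions. They drain into pre-collecting vessels, which have some valves and patchy muscle, and these into collecting vessels with continuous junctions, a basement membrane, valves and a coat of contractile mural cells. LYVE1, a hyaluronan receptor, is strong in capillaries and is lost toward the collecting vessels.

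Levels are log2 values after RMA, the authors' normalization. Array medians lay between 6.06 and 6.17 on that scale. Across the genes tested, correlations were 0.979 to 0.987 within pre-col LEC, 0.983 to 0.988 within cap LEC and 0.975 to 0.989 between arrays of the 2 groups. The same measure was 0.977 to 0.988 between pre-col LEC and col LEC, so closeness to cap LEC is not particular to this pair. It was 0.910 to 0.921 between pre-col LEC and BEC. The genes behind the sort check the labels and are not findings. The log2 level of Lyve1 was 12.47, 12.68 and 12.76 on the pre-col LEC arrays and 13.05, 13.04 and 13.15 on the cap LEC arrays, without overlap, and 10.44 ± 0.35 in col LEC (SD, n = 3). Prox1, which encodes the master regulator of lymphatic fate, was at 12.51 ± 0.11 in pre-col LEC, 12.53 ± 0.04 in cap LEC and 6.93 ± 0.54 in BEC. Pdpn was at 12.09 ± 0.08, 12.15 ± 0.07 and 7.14 ± 0.25 in the same groups, and Pecam1, an adhesion molecule of all endothelium, at 12.22 ± 0.05, 12.21 ± 0.02 and 12.51 ± 0.11. Except for Lyve1, these levels overlapped between the 2 lymphatic groups.

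Replicate 1 of pre-col LEC stood apart from its group. On that array 76 genes were at least 2-fold above both other pre-col LEC arrays, against 15 and 26 genes on replicates 2 and 3. The same count was 35, 8 and 20 on the cap LEC arrays and 148, 24 and 13 on the BEC arrays. Among these 76 of 19669 tested genes were 5 of 16 mural cell markers, 3 of 10 tested fibroblast markers and 4 of 18 blood endothelial markers. Values without this array are therefore given beside the results it touches. In sorted bulk samples, a change in the number of cells of a type and a change in RNA per cell cannot be told apart.

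No single gene separated pre-collecting from capillary cells after adjustment over all genes. The nearest were Gdf10, a ligand of the TGF-beta family, the endothelial receptor gene Cd93 and the magnesium transporter gene Slc41a1 on the higher side. On the lower side they were Slc9a9, an endosomal sodium-proton exchanger gene, and Pxdc1. In limma's test 0 of 19669 genes (0.0%) had an adjusted p under 0.05, and the smallest adjusted p was 0.069, shared by 7 genes. These were the 5 genes just named and the predicted genes Gm23303 and 2700012I20Rik, which are named here because their values were seen. At an unadjusted p under 0.05 there were 1257 genes (6.39%), 434 of them higher (2.21%) and 823 lower (4.18%) in pre-col LEC. Of 19669 genes, 311 were higher (1.58%) and 643 lower (3.27%) with that p and with no overlap between the 3 arrays of each group. Without pre-col LEC replicate 1 these became 314 and 568.

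The 2 groups lay close together. The median difference over all genes was 0.0, the median absolute difference 0.09 and the median standard error 0.11 on the log2 scale. For 19267 genes (98.0%) the 95% interval of the difference lay inside a 2-fold change in either direction. The mean was at least 2-fold higher in pre-col LEC for 24 genes and at least 2-fold lower for 16. Of these, 4 and 4 also had no overlap between groups and an unadjusted p under 0.05. They were Gdf10, Klrb1f, Gm23303 and Gm23111 on the higher side and Slc9a9, Snord61, Gm9958 and Snord11 on the lower side, of which the predicted genes and small RNAs are named because their values were seen.

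Most of the large positive differences of named genes were largest on a single array. Of the 24 genes, 13 were predicted genes or small RNAs and 11 were named genes, and pre-col LEC replicate 1 was the highest pre-col LEC array for 9 of those 11. These 9 were the pericyte and smooth muscle genes Rgs5, Pdgfrb, Acta2, Cd248 and Fhl5, the matrix genes Dcn and Aspn, the fatty acid carrier gene Fabp4 and the surface antigen gene Ly6c2. Without that array 12 of the 24 genes stayed at 2-fold or more and 7 were under 1.5-fold. The exceptions were Gdf10, whose difference was 1.56 without it, and Klrb1f, at 1.48. On the lower side 13 of the 16 were predicted genes or small RNAs, and the named ones were Slc9a9, the ubiquitin ligase gene Cbl and Ch25h, the cholesterol 25-hydroxylase gene. Cbl and Ch25h were each lowest on a single pre-col LEC array, with Cbl at 9.83, 10.21 and 7.46 against 10.38, 10.12 and 10.11, and Ch25h at 6.86, 8.89 and 9.20 against 9.83, 9.09 and 9.04.

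**Figure D1:**
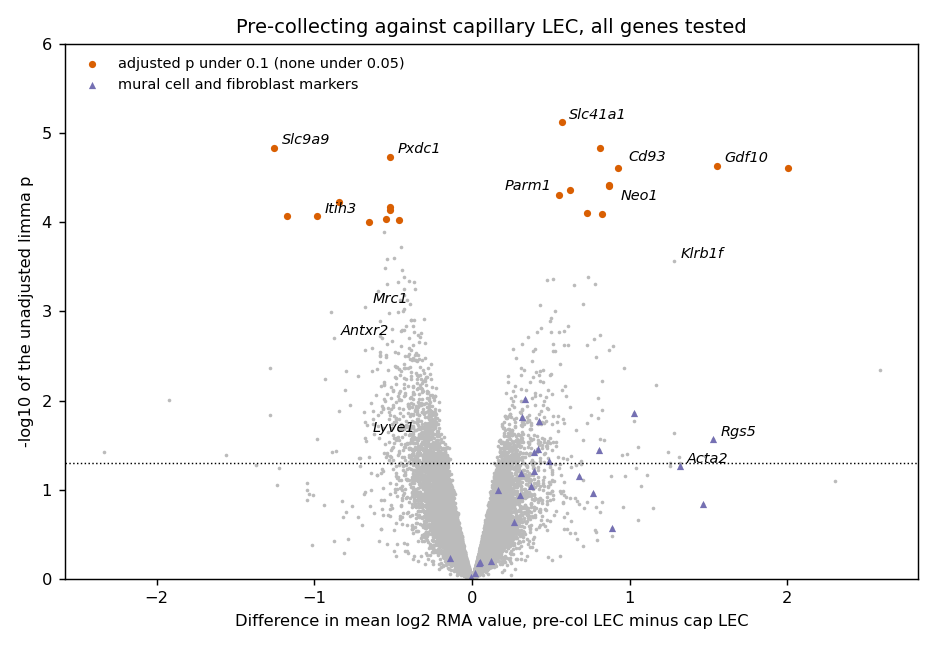
Each point is a gene, with the difference in mean log2 RMA value (pre-col LEC minus cap LEC) on the x axis and -log10 of the unadjusted limma p on the y axis, with a dotted line at 0.05. The 21 genes with an adjusted p under 0.1 are orange (11 higher, 10 lower), and mural cell and fibroblast markers are purple triangles, most of them to the right of 0.

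The secreted proteins among the 15 leading higher genes are described first. Gdf10 (TC1400000363.mm.1) was at 10.35, 10.48 and 10.27 in pre-col LEC and at 8.59, 9.19 and 8.66 in cap LEC. Its 6 arrays did not overlap, and the difference was 1.55 ± 0.23 (limma's moderated SE, as below), a 2.94-fold higher linear value with an adjusted p of 0.069. Over the 16 alternatives its adjusted p ran from 0.015 to 0.388. Adamts1, a matrix-cleaving protease, was at 8.96, 9.16 and 8.43 against 7.96, 7.92 and 8.24, a difference of 0.82 ± 0.20 (adjusted p = 0.468). Hgf, the hepatocyte growth factor gene, was at 7.30, 6.98 and 7.03 against 6.22, 6.43 and 6.27, a difference of 0.80 ± 0.28 (adjusted p = 0.747). Both groups of arrays stood apart for these genes, although neither gene was close to a call. Sbspon, which encodes a small matrix protein with a thrombospondin repeat, differed by 0.96 ± 0.27, with pre-col LEC replicate 1 at 7.99 and the others at 7.35 and 7.18. Ccdc3, a secreted coiled-coil protein gene, differed by 0.87 ± 0.23 and was lowest on that array.

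Receptors, junction proteins and transporters come next. Cd93 (TC0200004811.mm.1), a lectin-like receptor of endothelium, was at 9.68, 9.32 and 9.56 in pre-col LEC and 8.76, 8.32 and 8.70 in cap LEC, a difference of 0.93 ± 0.14 (adjusted p = 0.069). Neo1 (TC0900002401.mm.1), a receptor for netrins and repulsive guidance molecules, was at 9.51, 9.95 and 9.84 against 8.79, 8.92 and 8.98, a difference of 0.87 ± 0.14 (adjusted p = 0.0846). Cldn11 (TC0300000211.mm.1), a claudin of tight junctions, was at 9.76, 10.41 and 10.08 against 9.29, 9.28 and 9.07, also 0.87 ± 0.14 (adjusted p = 0.0846). None of the 3 overlapped between the groups, and for Cldn11 and Neo1 the array that stood apart was the lowest of pre-col LEC. Without it Cldn11 differed by 1.03 and passed the test (adjusted p = 0.0452), against adjusted p values of 0.015 to 0.467 over the alternatives. Slco2a1, the prostaglandin transporter gene, was at 7.68, 8.35 and 8.08 against 7.19, 7.33 and 7.41, a difference of 0.73 ± 0.19 (adjusted p = 0.501). Klrb1f differed by 1.28 ± 0.25 (adjusted p = 0.207). It belongs to a family of close copies among natural killer cell lectins, so the probes may not be its own. Aoc3, an amine oxidase of vessel walls, differed by 0.77 ± 0.20, with 7.66 on pre-col LEC replicate 1 against 6.63 and 6.90 on the others, and by 0.47 without it.

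Inside the cell, Odc1, the rate-limiting enzyme of polyamine synthesis, was at 9.89, 10.09 and 10.36 in pre-col LEC and 9.10, 9.39 and 9.37 in cap LEC. The difference was 0.83 ± 0.14 (adjusted p = 0.0926), with no overlap. Prr15 differed by 0.73 ± 0.12 with the same adjusted p. The actin-severing protein gene Scin (0.82 ± 0.25) and the annexin gene Anxa8 (0.79 ± 0.21) varied more, each over about 1 unit within pre-col LEC. Scin was also dim, at a mean of 6.43 in pre-col LEC and 5.61 in cap LEC, near the array medians. Slc41a1 (TC0100001176.mm.1) had a smaller difference, 0.57 ± 0.08, and the smallest unadjusted p of all genes, 7.57e-06. Its arrays were at 11.67, 11.72 and 11.72 against 11.05, 11.15 and 11.21, a narrow spread in both groups. The collagen receptor kinase gene Ddr2 was higher by 0.55 ± 0.09 and the mucin-like membrane protein gene Parm1 by 0.62 ± 0.10 (adjusted p = 0.0886 and 0.0846).

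Among the genes with lower values in pre-collecting cells, Slc9a9 (TC0900001182.mm.1) led. It was at 7.71, 7.84 and 7.39 in pre-col LEC and 9.16, 8.80 and 8.73 in cap LEC, a difference of -1.25 ± 0.18 (adjusted p = 0.069, and 0.015 to 0.388 over the alternatives). Itih3, a protein that binds hyaluronan in the matrix, was at 8.45, 7.93 and 7.85 against 9.20, 9.09 and 8.87, a difference of -0.98 ± 0.17 (adjusted p = 0.0926). Without pre-col LEC replicate 1 the Itih3 difference was -1.17. Pxdc1 was at 8.90, 9.03 and 9.11 against 9.56, 9.50 and 9.53, a difference of -0.52 ± 0.08 (adjusted p = 0.069). For these genes every pre-col LEC array lay below every cap LEC array.

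The uptake receptor genes Antxr2 and Mrc1 were also among the 15 leading lower genes. Antxr2, a receptor for matrix proteins, was at 9.09, 8.47 and 8.82 against 10.13, 9.39 and 9.49, a difference of -0.88 ± 0.22 (adjusted p = 0.476). Mrc1, the mannose receptor gene, was at 9.23, 9.79 and 9.28 against 10.29, 10.02 and 10.03, a difference of -0.68 ± 0.15 (adjusted p = 0.363). Neither gene overlapped between groups. Enzymes followed, namely the cytochrome P450 genes Cyp2ab1 (-0.81 ± 0.25) and Cyp4b1 (-0.80 ± 0.23), the O-glycan initiating transferase gene Galnt4 (-0.68 ± 0.25), the O-mannosyltransferase gene Pomt2 (-0.68 ± 0.18) and the sialic acid lyase gene Npl (-0.66 ± 0.29). Cyp2ab1 was at 7.26, 7.48 and 7.06 in pre-col LEC and 8.79, 7.69 and 7.74 in cap LEC, and without cap LEC replicate 1 its difference was -0.45. Without pre-col LEC replicate 3 the difference was -0.53 for Cyp4b1, -0.45 for Galnt4 and -0.46 for Gas2l3. Cyp4b1 and its pseudogene copy Cyp4b1-ps2 (-0.69 ± 0.24) may be read by the same probes, so neither value is certain to be its own. The rest of the 15 leading lower genes were Isoc1 (-0.93 ± 0.28), the cytoskeletal linker gene Gas2l3 (-0.73 ± 0.21), the Mediator subunit gene Med30 (-0.72 ± 0.32), the imprinted gene Ndn (-0.68 ± 0.27) and the nuclear protein gene Aff3 (-0.65 ± 0.11). Of these only Aff3 had an adjusted p under 0.1 (0.0926). Gas2l3 was dim, at a mean of 6.18 in pre-col LEC and 6.91 in cap LEC, near the array medians. All 30 leading genes kept their direction in each of the 16 alternatives. Their choice for no overlap fixed this in advance where single arrays were left out, so it is no check of them.

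**Figure D2:**
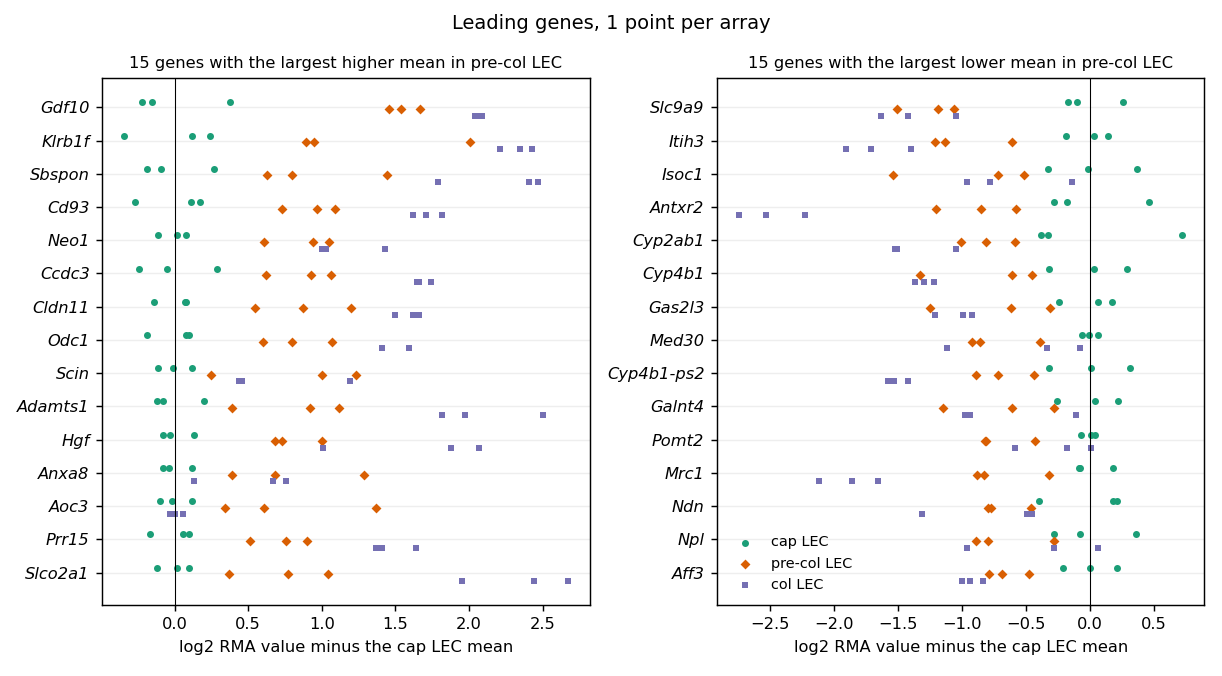
Log2 RMA value of each array minus the cap LEC mean of that gene, for the 15 leading higher (left) and 15 leading lower genes (right), with cap LEC as circles, pre-col LEC as diamonds and col LEC as squares. Circles and diamonds do not overlap in any gene, as the choice of genes requires. The squares are shown beside them for their level, and the comparison with col LEC shares the pre-col LEC arrays.

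Other settings of the same test gave calls. Array weights, by which limma gives less weight to arrays that fit their group poorly, called 28 genes (0.142%), 13 higher and 15 lower, with a weight of 0.64 on pre-col LEC replicate 1 and of 1.10 and 1.96 on the others. Cyclic loess, a normalization between arrays, called 13 genes (0.0661%), all among the 28. In all, 7 of 16 alternatives called at least 1 gene and 28 genes were called at least once. Of these 28, 22 were named genes and 6 were predicted genes or small RNAs. The named ones that were called besides the leading genes were lower in pre-col LEC, apart from Slc41a1, Parm1 and Ddr2. They were the tenascin X gene Tnxb (-0.50 ± 0.10), the purine-degrading enzyme gene Xdh (-0.51 ± 0.13), the tubulin-binding protein gene Tppp3 (-0.52 ± 0.09), the disulfide isomerase gene Pdia5 (-0.52 ± 0.09), the immune GTPase gene Gimap3 (-0.46 ± 0.08), the kinase gene Dapk2 (-0.43 ± 0.10), Triqk (-0.43 ± 0.09), Ascc1 (-0.40 ± 0.08), Pxdc1 and the pseudogene Dynlt1-ps1 (-0.56 ± 0.10). Gimap3 and Triqk were dim, at means of 5.94 and 6.25 in pre-col LEC and 6.40 and 6.68 in cap LEC, near the array medians. When only the 6 arrays of the 2 groups were fitted, no gene was called and the smallest adjusted p was 0.388.

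Part of the capillary genes had lower values in pre-collecting cells. Of 12 tested genes of the lymphatic capillary list, 9 were below 0, with a median of -0.20, against a median of 0.0 over all genes and 50.6% of genes above 0. No member was called over all genes. At an unadjusted p under 0.05, 4 were lower and 1 was higher, against 4.18% lower and 2.21% higher over all genes. The lower ones were Mrc1, Lyve1, the stretch-activated channel gene Piezo2 and the hyaluronan-associated gene Itih5. Lyve1 was fixed by the sort, and without it 3 of 11 were lower, with a median of -0.19. Mrc1 and Itih5 are also among the study's leading genes between collecting and capillary cells. Those were chosen on arrays that include cap LEC, so the direction of Mrc1 and Itih5 is not independent evidence. Piezo2 was at 8.87, 9.30 and 9.32 in pre-col LEC and 9.71, 9.70 and 9.82 in cap LEC (-0.57 ± 0.18), and Itih5 at 10.26, 10.07 and 9.99 against 10.77, 10.47 and 10.65 (-0.52 ± 0.19). Neither overlapped. Ptx3, a soluble pattern recognition protein gene, went the other way at 7.74, 8.07 and 7.80 against 7.66, 7.70 and 7.48 (0.26 ± 0.11). Ackr2, which takes up inflammatory chemokines, overlapped between groups at 9.19, 9.31 and 8.77 against 9.76, 9.33 and 9.17. Without pre-col LEC replicate 1 the median was -0.34, with 3 lower and 1 higher at that p.

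Scavenger and endocytic receptors share members with that list. Of 15 tested, 7 were above 0 and 8 below, against 50.6% of all genes above 0. At an unadjusted p under 0.05, 5 were lower and 1 higher, against 4.18% and 2.21% of all genes. The median was -0.13, -0.22 without pre-col LEC replicate 1 and -0.06 without Lyve1, whose removal leaves 4 of 14 lower. Mrc1, Antxr2 and Lyve1 are among the 5, which were completed by Antxr1, a relative of Antxr2 that binds collagens, and Fcgrt, the recycling receptor for IgG and albumin. Antxr1 was at 10.34, 10.30 and 10.43 against 10.77, 10.67 and 10.84 (-0.40 ± 0.11), and Fcgrt at 11.08, 11.11 and 11.04 against 11.26, 11.36 and 11.25 (-0.22 ± 0.09). Their arrays did not overlap. With pre-col LEC replicate 1 left out, 3 members were lower and none was higher at that p. Mrc1 and Antxr2 are among the study's leading capillary genes, so their direction is not independent evidence either. Colec12, a scavenger receptor with a lectin domain, was higher by 0.28 ± 0.12. Stab1, another scavenger receptor gene, overlapped at 10.56, 11.10 and 10.83 against 10.82, 11.09 and 10.98.

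Genes of lymphatic identity differed little. Over all genes 50.6% were above 0, and 4.18% were lower at an unadjusted p under 0.05. Of 15 tested genes of this list, 12 were below 0 with a median of -0.07, and 2 were lower at that p. Lyve1 is 1 of them and was selected by the sort. The other is Flt4, the receptor for the lymphatic growth factor VEGF-C, at 12.24, 12.55 and 12.37 against 12.51, 12.67 and 12.72, a difference of -0.25 ± 0.11 with overlapping arrays. The transcription factor gene Nr2f2, a partner of Prox1, was at 11.36, 11.61 and 11.48 against 11.59, 11.74 and 11.72. The VEGF-C co-receptor gene Nrp2 was at 11.15, 11.66 and 11.46 against 11.47, 11.72 and 11.77. In all 3 genes pre-col LEC replicate 1 was the lowest of the 6 arrays, and without it 6 of the 15 genes were above 0 and none had an unadjusted p under 0.05. Efhd1, also on the list, was highest in BEC, at a mean of 8.30 against 5.59 in pre-col LEC and 5.23 in cap LEC.

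On the collecting side, valve genes were higher in a few members only. Valve endothelium is known for Prox1, Foxc2, Gata2, integrin alpha 9 and connexins. Of 28 tested valve genes, 19 were above 0, 4 were higher at an unadjusted p under 0.05 and none was lower, with a median of 0.04 (0.12 without pre-col LEC replicate 1). Over all genes 50.6% were above 0, 2.21% were higher and 4.18% lower at that p. Cldn11 and Neo1 are 2 of the 4. The laminin chain gene Lama5 was at 8.55, 8.67 and 8.58 in pre-col LEC and 7.93, 8.41 and 8.27 in cap LEC (0.40 ± 0.13). The junction adhesion molecule gene Esam was at 8.57, 8.53 and 8.38 against 7.80, 8.03 and 8.40 (0.42 ± 0.17), with overlap. The regulators themselves overlapped between the groups. Foxc2 was at 8.86, 9.11 and 8.95 against 8.71, 8.94 and 8.96, Gata2 at 9.20, 9.37 and 9.28 against 9.31, 9.27 and 9.14, and the integrin gene Itga9 at 10.51, 10.77 and 10.69 against 10.70, 10.86 and 10.73.

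Flow-responsive genes, which answer to shear stress on endothelium, included 5 of 16 higher and 2 lower at an unadjusted p under 0.05, against 2.21% and 4.18% of all genes, and the median was 0.05. Nos3, the endothelial nitric oxide synthase gene, was at 9.19, 9.35 and 8.88 in pre-col LEC and 8.54, 8.61 and 8.69 in cap LEC (0.53 ± 0.12, adjusted p = 0.377). Pdgfb, the growth factor that recruits mural cells, was at 8.45, 8.37 and 8.29 against 8.13, 7.93 and 7.74 (0.44 ± 0.11, adjusted p = 0.456). Neither overlapped. Edn1, the endothelin precursor gene, was at 7.15, 6.63 and 6.83 against 6.50, 6.40 and 6.59 (0.37 ± 0.14), and without replicate 1 of pre-col LEC its difference was 0.23 (unadjusted p = 0.105). On the arrays other than pre-col LEC replicate 1, 3 members were higher and 1 was lower at that p. Adamts1 and Pi16 complete the 5, and Pi16 is also on the fibroblast list and was highest on pre-col LEC replicate 1. Adamts1 is among the study's leading collecting genes, chosen on arrays that include cap LEC. The lower ones were Klf6 (-0.22 ± 0.09) and the lipid phosphatase gene Plpp3 (-0.19 ± 0.08). Klf6 also belongs to the immediate early genes, which react to cell dissociation. Of 20 of these, 1 was higher and 1 lower.

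In the BMP and TGF-beta pathway the differences past the unadjusted threshold were mostly ligands, and none was called over all genes. Of 21 genes tested, Gdf10, Bmp4 and Bmp6 were higher at an unadjusted p under 0.05 and Tmem100, a target of BMP signalling in endothelium, was lower (-0.35 ± 0.15), where 2.21% of all genes were higher and 4.18% lower. Bmp4 was at 7.77, 7.84 and 7.76 in pre-col LEC and 7.45, 6.99 and 7.17 in cap LEC (0.59 ± 0.14, adjusted p = 0.456). Bmp6 was at 9.95, 9.82 and 10.32 against 9.35, 9.37 and 9.63 (0.58 ± 0.15, adjusted p = 0.501). Both were without overlap. Another ligand gene, Bmp2, had a difference of 0.08 (unadjusted p = 0.508). The median of the pathway was 0.02. Gdf10, and Adm below, are among the study's leading collecting genes, chosen on arrays that include cap LEC. In the VEGF and angiopoietin pathway, Adm, the peptide adrenomedullin that acts on lymphatic vessels, was at 11.31, 11.38 and 10.84 against 10.50, 10.49 and 10.71 (0.61 ± 0.16). It was the 1 higher gene of 17 at an unadjusted p under 0.05, beside Flt4 as the 1 lower.

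Of 22 basement membrane and matrix genes, 3 were higher and 1 lower at an unadjusted p under 0.05, with a median of -0.08 (-0.02 without pre-col LEC replicate 1). The lower count is near the 4.18% of all genes, and 2.21% of all genes were higher. Mmrn2, an endothelial matrix protein that binds CD93, was at 10.57, 10.67 and 10.39 in pre-col LEC and 10.23, 9.89 and 9.96 in cap LEC (0.51 ± 0.11, adjusted p = 0.262). Tnxb was at 10.50, 10.85 and 10.63 against 11.08, 11.14 and 11.24. Neither overlapped between groups. The collagen IV chain gene Col4a2 was at 9.23, 9.77 and 9.73 against 9.73, 9.98 and 10.09, with overlap. Sparc, a matrix protein gene, differed by 0.51 ± 0.16 and by 0.29 without pre-col LEC replicate 1. Lama5 is the other higher member.

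Guidance, junction and integrin genes followed with single members. Of 22 axon guidance genes, 4 were higher and 1 lower at an unadjusted p under 0.05 (median 0.04), against 2.21% and 4.18% of all genes, shares that hold for the counts that follow too. Besides Neo1 the higher ones were the ephrin receptor gene Epha4 (0.58 ± 0.21), the repellent gene Slit3 (0.36 ± 0.13) and the netrin gene Ntn4 (0.31 ± 0.14), and the lower one was Sema6a (-0.22 ± 0.08). Of 18 junction genes, 3 were higher (1 without pre-col LEC replicate 1), namely Cldn11, Esam and the connexin gene Gja5. Gja5 was at 8.48 on pre-col LEC replicate 1 and at 7.30 and 6.74 on the others, against 6.46 to 6.79 in cap LEC. Of 13 integrins, Itga3 (0.32 ± 0.13) and Itga8 (0.46 ± 0.18) were higher, and without replicate 1 of pre-col LEC the difference of Itga8 was 0.21. No integrin was lower at that p.

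Immune and metabolic lists had few members past an unadjusted p of 0.05. Of 18 leukocyte trafficking genes, Mrc1 and the immune-inhibitory ligand gene Cd200 (-0.30 ± 0.12) were lower, and the median of -0.12 became -0.02 without pre-col LEC replicate 1. None of 14 antigen presentation genes and none of 17 interferon response genes passed. The class II gene H2-Eb1 varied within both groups, at 9.34, 7.29 and 8.95 in pre-col LEC and 9.18, 7.2 and 7.4 in cap LEC. Of 16 lipid handling genes, Lpl and Slc27a3 were higher (0.28 ± 0.12 and 0.27 ± 0.12) and Cpt1a and Gpihbp1 lower (-0.23 ± 0.10 and -0.27 ± 0.12). Of 17 cell cycle genes, 14 were below 0 with a median of -0.18, and none passed. Without pre-col LEC replicate 1 the cell cycle median was -0.08, with 6 of 17 above 0. The proliferation marker Mki67 was at 5.76, 7.95 and 7.16 against 7.14, 7.42 and 7.93, which overlapped. Of 15 Notch pathway genes 2 were higher, Notch3 and Mfng (0.41 ± 0.17), and Notch3 is also a mural cell marker. Both were highest on pre-col LEC replicate 1, and without it no Notch gene and no lipid handling gene passed. Among 7 mechanosensitive channel genes only Piezo2 passed, and it was lower.

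**Figure D3:**
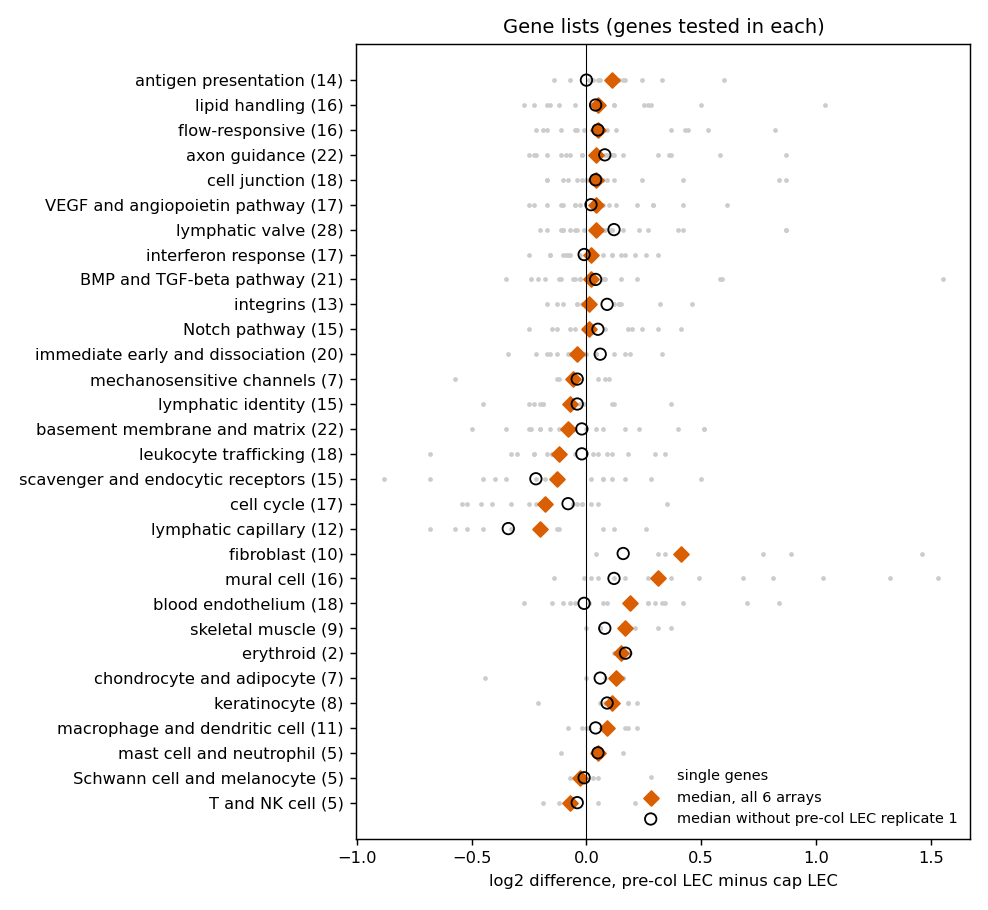
Log2 difference (pre-col LEC minus cap LEC) of the tested genes of each list as grey points, the list's median over all 6 arrays as a diamond and the median without pre-col LEC replicate 1 as an open circle, with the number of genes in brackets. The fibroblast and mural cell medians of 0.41 and 0.31 lie farthest to the right and move to 0.16 and 0.12 without that array, while the lymphatic capillary median moves from -0.20 to -0.34.

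Collecting vessel cells extend the series, and their levels place the pre-collecting values. The comparison of col LEC with pre-col LEC shares the 3 pre-col LEC arrays with the comparison above, so the values are given side by side and no agreement is counted. In that comparison 59 of 19669 genes (0.3%) were called at an adjusted p under 0.05. Parm1 was at 7.91 ± 0.03 in cap LEC, 8.53 ± 0.08 in pre-col LEC and 9.98 ± 0.14 in col LEC (SD, n = 3). The step of Parm1 from pre-col to col LEC was 1.45 ± 0.10 (adjusted p = 6.64e-05), against 0.62 from cap to pre-col LEC. Slco2a1 had steps of 0.73 and then 1.62 ± 0.19 (adjusted p = 0.00387), and Adamts1 of 0.82 and then 1.28 ± 0.20 (adjusted p = 0.024). On the lower side Antxr2 had steps of -0.88 and -1.62 ± 0.22 (adjusted p = 0.0102), and Mrc1 of -0.68 and -1.20 ± 0.15 (adjusted p = 0.00676). In these genes the larger part of the difference lay between pre-col and col LEC. They are among the study's leading genes between collecting and capillary cells, chosen on these same arrays. That choice favours a large step to col LEC, so its size and p-value are not independent evidence. Lyve1, fixed by the sort, was also nearer to cap LEC than to col LEC in pre-col LEC. Its levels were 13.08 ± 0.06 in cap LEC, 12.64 ± 0.15 in pre-col LEC and 10.44 ± 0.35 in col LEC.

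Other genes had the larger measured step between capillary and pre-collecting cells. They were named for their difference between these 2 groups, and that choice favours a large first step. Slc9a9 was at 8.90 ± 0.23 in cap LEC, 7.65 ± 0.23 in pre-col LEC and 7.53 ± 0.29 in col LEC, and its step from pre-col to col LEC was -0.11 ± 0.18. In the same order Pxdc1 was at 9.53 ± 0.03, 9.01 ± 0.11 and 8.99 ± 0.02, with a step of -0.02 ± 0.08 between pre-col and col LEC. Neo1 was at 8.90 ± 0.10, 9.77 ± 0.23 and 10.05 ± 0.24, with a last step of 0.28 ± 0.14. Gdf10 was at 8.81 ± 0.32, 10.37 ± 0.11 and 10.88 ± 0.03, with a last step of 0.51 ± 0.23. None of these last steps passed the test (adjusted p = 1.0, 1.0, 0.897 and 0.837), which does not show that a step is absent.

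Whether a gene departs from the halfway level was tested with the contrast of pre-col LEC against the midpoint of cap and col LEC. Of 19669 genes 1 was called (0.00508%), and 755 (3.84%) had an unadjusted p under 0.05, of which 255 lay above and 500 below the midpoint. None of the genes just described was among the calls. The called gene was Aqp1, a water channel of endothelium. It was at 11.25, 11.13 and 11.14 in pre-col LEC, 11.44, 11.25 and 11.42 in cap LEC and 9.28, 9.10 and 9.51 in col LEC. Pre-col LEC lay 0.84 above the midpoint (adjusted p = 0.0183, and 0.00961 to 0.209 over the alternatives). The call was lost without the BEC arrays, without any of the 3 pre-col LEC arrays in turn and without cap LEC replicate 2. Below the midpoint the largest departure among named genes was that of the kinase gene Nuak1, at -0.80, which had an adjusted p of 0.139. Nuak1 was at 8.52, 8.75 and 8.32 in pre-col LEC, against 9.22, 8.77 and 8.75 in cap LEC and 9.74, 9.85 and 9.63 in col LEC. Every pre-col LEC array lay below those of col LEC, but the highest equalled the lowest cap LEC array after rounding. The other named genes below the midpoint were Tec, Zfp654, Tex30 and Isoc1. Above it were Rgs5, Aspn, Sparcl1, Acta2 and Ly6c2, each highest in pre-col LEC on replicate 1 and with a BEC mean between 8.99 and 13.20.

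**Figure D4:**
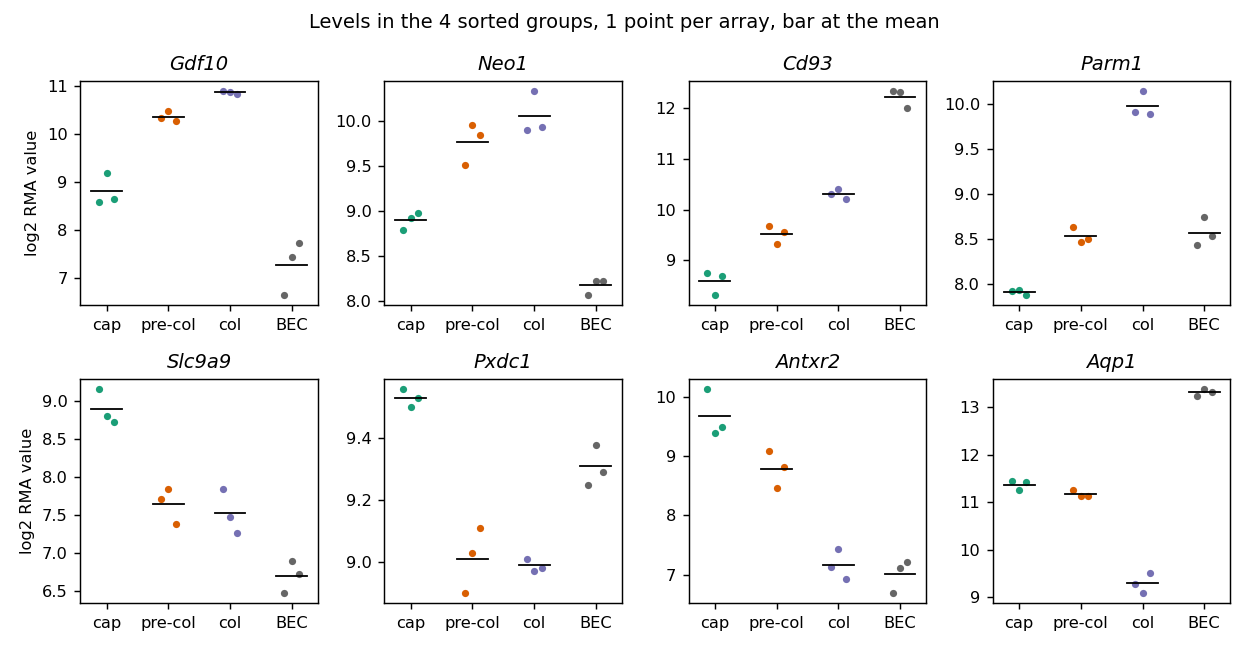
Log2 RMA value of 8 genes in the 4 sorted groups, with 1 point per array and a bar at the group mean, and a y axis fitted to each gene. Parm1 and Antxr2 differ more between pre-col and col LEC, Slc9a9 and Pxdc1 are at the col LEC level in pre-col LEC, and Aqp1 is near the cap LEC level in pre-col LEC.

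The study's leading genes between collecting and capillary cells were also read in this comparison. They were chosen on arrays that include cap LEC, so their direction here is not independent evidence. Collecting genes were Gdf10, Klrb1f, Sbspon, Cd93, Ccdc3, Adamts1, Slco2a1, Parm1, Adm and Pcdh7. Among the capillary genes were Antxr2, Mrc1, Enpp3, Serpina3n, Itih5, Shc3 and Aqp1. Counts of other lists that hold these genes share this limit. All 10 collecting genes were above 0 (median 0.84) and 9 had an unadjusted p under 0.05, the exception being the protocadherin gene Pcdh7 at 0.29 ± 0.14. All 9 capillary genes were below 0 (median -0.64) and 6 had that p. Of these the ectonucleotidase gene Enpp3 was at 11.46, 11.23 and 11.23 in pre-col LEC and 12.07, 11.73 and 11.74 in cap LEC (-0.54 ± 0.11). The protease inhibitor gene Serpina3n, which has close copies, differed by -0.64 ± 0.21. The adaptor gene Shc3 differed by -0.98 ± 0.39, and its arrays of 8.52, 8.99 and 7.04 overlapped with 8.77, 9.35 and 9.39.

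Most markers of mural cells, 13 of 16, were at their highest pre-col LEC level on replicate 1. The smooth muscle actin gene Acta2 was at 10.21 on that array, at 8.0 and 6.84 on the other pre-col LEC arrays and at 7.38, 6.95 and 6.77 in cap LEC. Rgs5, a pericyte gene, was at 10.21, 8.91 and 7.93 against 8.75, 6.67 and 7.04, and Pdgfrb, the receptor by which mural cells respond to Pdgfb, at 8.93, 7.72 and 7.42 against 7.62, 6.76 and 6.61. In all 3 genes cap LEC replicate 1 was the highest cap LEC array, and pre-col LEC replicate 1 was the highest pre-col LEC array. Rgs4, Cspg4 and Abcc9 were not, with Abcc9 at 6.83, 6.37 and 7.05 against 7.35, 6.57 and 6.76. Kcnj8 was at 7.18 on pre-col LEC replicate 1, below cap LEC replicate 1 at 7.46. Of 16 mural markers 14 were above 0 and 5 were higher at an unadjusted p under 0.05, with a median of 0.31. Over all genes 50.6% were above 0 and 2.21% were higher at that p. Without pre-col LEC replicate 1, 14 markers were above 0 and none passed, with a median of 0.12. Over all genes 50.8% were then above 0 and 4.82% passed. The summed level of the list was 12.72, 11.81 and 11.54 (log2) in pre-col LEC, 11.45 to 11.76 in cap LEC, 11.48 to 11.59 in col LEC and 13.64 to 13.89 in BEC.

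Fibroblast markers were highest on the same array. The matrix proteoglycan gene Dcn was at 10.38 on pre-col LEC replicate 1, 6.50 and 7.58 on the others and 6.46 to 7.03 in cap LEC. Postn, the periostin gene, was at 9.0, 6.86 and 7.53 against 6.9 to 7.2, and the collagen I chain gene Col1a2 at 8.33, 7.73 and 7.63 against 7.38 to 7.57. In all 3 genes replicate 1 lay above each cap LEC array, and in Dcn and Postn replicate 2 lay within or below their range. Lum, another proteoglycan gene of fibroblasts, was too dim to be tested and was at 7.42, 3.85 and 4.93 in pre-col LEC against 3.87 to 4.18 in cap LEC. All 10 tested fibroblast markers were above 0 and 4 passed an unadjusted p of 0.05, with a median of 0.41. Over all genes 50.6% were above 0 and 2.21% were higher at that p. Without pre-col LEC replicate 1, 9 markers were above 0 and 1, Col6a3, passed, with a median of 0.16. Over all genes 50.8% were then above 0 and 4.82% passed. The summed level was 12.16, 10.65 and 10.79 in pre-col LEC, 10.42 to 10.74 in cap LEC and 11.08 to 11.37 in BEC. In col LEC it was 11.33 on replicate 1 and 10.50 and 10.59 on the others, with Dcn at 9.54 on that replicate.

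**Figure D5:**
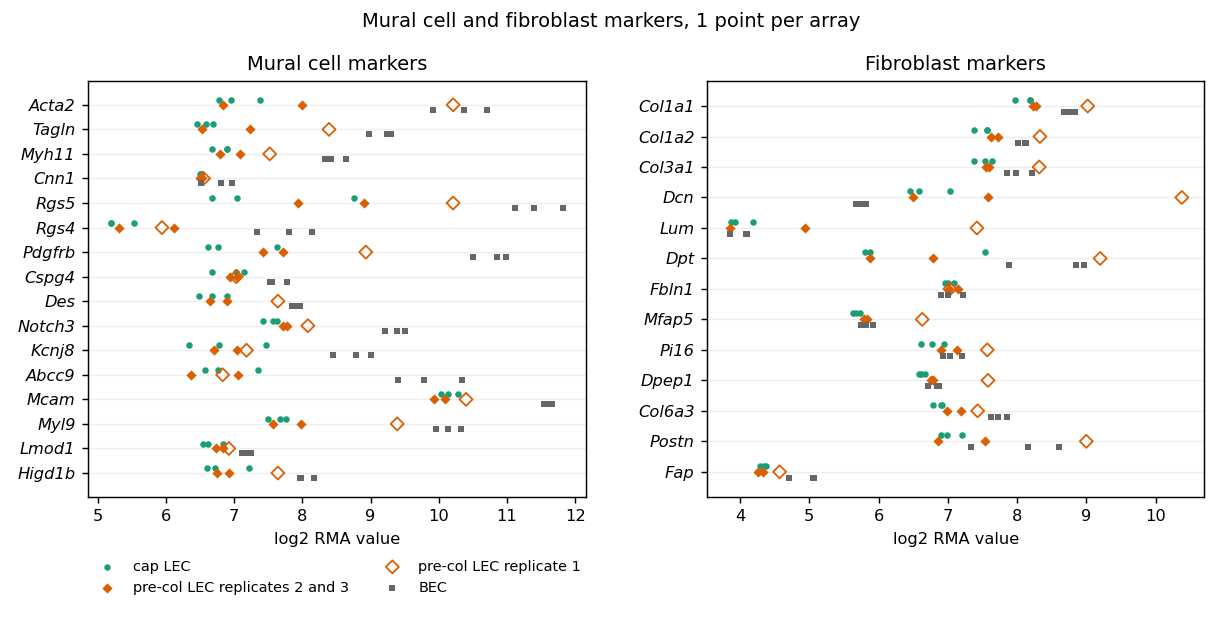
Log2 RMA value of each mural cell (left) and fibroblast marker (right) on each array, with cap LEC as circles, pre-col LEC as diamonds (replicate 1 open) and BEC as squares. Replicate 1 is the highest pre-col LEC array in 13 of 16 mural and 12 of 13 fibroblast markers, and the BEC squares lie mostly to its right among mural markers.

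Blood endothelial markers went with the same array in part. Replicate 1 was the highest pre-col LEC array in 12 of 18, and the median of the list was 0.19 with it and -0.01 without it. Flt1, a VEGF receptor of blood vessels, was at 7.86, 7.04 and 6.65 in pre-col LEC against 6.51 to 7.17 in cap LEC and 11.86 to 12.13 in BEC. Ly6c1 was at 9.37, 8.04 and 7.56 against 7.30 to 8.14, with the reservation that Ly6c1 and Ly6c2 are close copies. The part of mural, fibroblast or blood endothelial RNA in the differences of single genes was not tested. For Gdf10, Cldn11, Neo1, Cd93, Slc41a1, Slc9a9 and Mrc1, the difference without the array was 1.56, 1.03, 1.00, 0.84, 0.59, -1.28 and -0.58. The lack of overlap between the groups fixed their direction in advance, so this is no check of them. Their unadjusted limma p without that array lay between 2.3e-06 for Cldn11 and 0.00501 for Mrc1. These genes were named for a difference on these same arrays, so these p-values are not independent evidence.

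Markers of other cell types had small median differences. Medians were 0.09 for 11 macrophage and dendritic cell genes, -0.07 for 5 T and NK cell genes, 0.05 for 5 mast cell and neutrophil genes and 0.11 for 8 keratinocyte genes. They were -0.03 for 5 Schwann cell and melanocyte genes, 0.17 for 9 skeletal muscle genes, 0.13 for 7 chondrocyte and adipocyte genes and 0.15 for 2 erythroid genes. Only Cd207 (0.22 ± 0.10) and Comp (-0.44 ± 0.09) among them had an unadjusted p under 0.05. Cd207 was dim, at a mean of 6.12 in pre-col LEC and 5.90 in cap LEC, near the array medians. Comp, a cartilage matrix protein gene, was at 8.78, 8.80 and 8.74 in pre-col LEC and 9.28, 9.13 and 9.24 in cap LEC, without overlap, and at 7.59 on average in BEC. The skeletal muscle gene Tnnt3 was at 8.23 on pre-col LEC replicate 1 and at 7.27 to 7.44 on the other arrays of the 2 groups. Replicate 1 was the highest pre-col LEC array in 10 of the 12 skeletal muscle markers with a row. Without it the median of this list was 0.08.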

How the data were processed

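RNA of the sorted cells (500 pg per sample, per the labels' protocols) was amplified to biotinylated sense-strand cDNA and hybridised to whole-transcript arrays. The deposited values are log2 RMA values, per the submitters' processing notes. Not given in the sources used here are the software and its version, the probe annotation, and whether all 12 arrays went through RMA jointly. RMA corrects background, equalises array distributions and summarises probes, so a change shared by most genes would be removed. Gene length and depth do not apply, and 3 arrays per group limit the precision.

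Of 72688 rows, 65956 were transcript clusters, of which 31200 named 1 gene in the platform annotation and 1550 named several. The latter and the unnamed ones were not used. A RefSeq table (GRCm38.p6) updated the symbols of 841 rows and was used for names only. Each gene is its brightest row, and 19669 genes above the array median on at least 3 of 12 arrays were tested. A model with the 4 groups was fitted to all 12 arrays (limma 3.58.1, lmFit and eBayes, two-sided, R 4.3.3) without a replicate block. P-values were adjusted by Benjamini-Hochberg over all 19669 genes, and errors of differences are limma's standard errors. The test was checked on simulated data. Tables and plots were made with Python 3.11.15, pandas 2.3.3, scipy 1.17.1 and matplotlib 3.10.9.

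Genes were named by a rule: the sort genes, the 15 genes on each side that differed most among those with an unadjusted p under 0.05 and no overlap, genes called under any alternative, up to 4 genes per list with the smallest p, the 5 on each side farthest from the midpoint of cap and col LEC, and the mural and fibroblast lists by array. Predicted genes and small RNAs were left out of it. Named outside it, after their values were seen, were Nr2f2, Nrp2, Stab1, Colec12, Foxc2, Gata2, Itga9, Klf2, Klf4, Edn1, Plpp3, Bmp2, Col4a2, Ntn4, Mki67, Flt1, Cbl, Ch25h, Cd248, Fhl5 and Fabp4. The lists and the comparison were chosen with earlier results of these data known, and lists share members.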

Additional observations from a re-analysis of the deposited data

How the results depend on the processing

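The count of called genes between pre-col and cap LEC was 0, and 28 with array weights, 13 after cyclic loess, 3 with the replicate number as a block, 1 without the BEC arrays (Gdf10, adjusted p = 0.0306), 1 with an intensity trend (Slc41a1, adjusted p = 0.0476) and 0 to 1 when each array was left out in turn. Without pre-col LEC replicate 1 the call was Cldn11, and without cap LEC replicate 1 it was 2700012I20Rik. Over the alternatives the adjusted p of Gdf10 and Slc41a1 ran from 0.015 to 0.388 and 0.389. The count was 0 with only the 6 arrays, quantile normalization, no filter, a filter over the 6 arrays and the mean of a gene's rows. The midpoint count of 1 became 2 with the block, cyclic loess, array weights, the trend and the filter over the 6 arrays, 0 without the BEC arrays, and 0 to 2 when each array was left out. It could not be fitted with only 2 groups. The cause was not tested.

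Same-numbered arrays of the 2 groups had correlated deviations of 0.148, 0.167 and 0.052, each the highest for its number, which is a hint from the data and not from the labels; the block called Gm23303, Prr15 and Neo1. All 84 genes whose differences are printed kept their direction in the 16 alternatives. Many of them were chosen for a difference or no overlap between these arrays, which favours that outcome. The mural median ran from 0.12 to 0.44 and the fibroblast median from 0.16 to 0.55 when each array was left out. At this spread the median half-width of the 95% interval was 0.25.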

Other observations

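Predicted genes and small RNAs held many of the largest differences between pre-collecting and capillary cells and are given here as values only. They made up 13 of the 24 genes at least 2-fold higher and 13 of the 16 at least 2-fold lower in pre-col LEC. Gm23303 was at 7.36, 8.14 and 7.15 in pre-col LEC and 5.50, 5.76 and 5.38 in cap LEC, a difference of 2.0 with limma's adjusted p of 0.069. Gm23111 was at 7.24, 8.62 and 8.54 against 5.23, 4.64 and 6.77. The small nucleolar RNA Snord11 was at 5.99, 5.94 and 6.02 against 7.26, 7.53 and 6.69. The arrays of the 2 groups did not overlap for any of these. Snord61 did not overlap either, but its difference of -2.34 was -0.84 without pre-col LEC replicate 1, where it was at 4.61 against 9.13 and 9.10 on the other pre-col LEC arrays. These names were chosen after their values were seen.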
